A study of Saccharomyces cerevisiae BY4741 with 6 samples.

Results

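The small subunit processome is the large nucleolar particle that forms on the nascent pre-rRNA and carries out the first steps of making the small (40S) ribosomal subunit. Its proteins join in modules: the UTP-A and UTP-B complexes bind the 5′ external transcribed spacer first, the U3 snoRNP base-pairs with the pre-rRNA, and the Mpp10 complex, helicases and further assembly factors follow. In budding yeast the genes of these proteins belong to the ribosome biogenesis regulon. This regulon is known to be transcribed strongly in growing cells and to be shut down when nutrients become poorer or run out.

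The genes were taken by systematic name from a list of 41: the UTP and IMP proteins, the box C/D snoRNP proteins and other 40S assembly factors, NSR1 and RCL1 among them. Of these, 39 are in the count table of 5219 genes and all 39 passed the filter on low counts, which left 5186 genes to be tested; UTP4, of the UTP-A complex, and the GTPase gene BMS1 are not analysed here. The rule goes by gene name alone, and the list was drawn up with earlier results of these data known. Transcription was followed by NET-seq, short for native elongating transcript sequencing. The RNA still bound to RNA polymerase II is purified through a tag on the polymerase and sequenced, so that a gene's count reflects polymerase engaged on it and not the stored mRNA.

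Both strains were budding yeast of the laboratory background BY4741 and carried RPB3-3xFLAG with a His3MX6 marker, a tagged subunit of the polymerase. The deletion strain also had SPP1 replaced by KanMX6 (spp1::KanMX6), which removes the Spp1 subunit of COMPASS, a methyltransferase complex for lysine 4 of histone H3; the wild type kept SPP1. Each strain was sampled in glucose medium (YPD) at mid-log growth and 15 and 60 min after transfer to galactose medium (YPG). This gives 6 libraries, 1 per strain and condition, with totals between 1162190 and 4167249 counts and no replicates. The labels describe spinning down and resuspending for the galactose cultures alone, so that sugar and handling cannot be told apart. The SPP1 counts were 1, 0 and 0 in the deletion and 324, 69 and 131 in the wild type.

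In glucose the processome genes were transcribed at a moderate level, and 15 min after transfer nearly all of their signal was gone. They took 1.25% of all counts of the deletion in glucose, 0.0508% at 15 min and 0.175% at 60 min, with exact (Clopper-Pearson) 95% binomial intervals of 1.24 to 1.26%, 0.0474 to 0.0543% and 0.167 to 0.183%. In the wild type the shares were 1.26%, 0.0435% and 0.213% (intervals 1.24 to 1.27%, 0.0400 to 0.0473% and 0.206 to 0.221%). Both strains thus lost most of the signal by 15 min and had regained a small part of it by 60 min. These intervals and all others given for single libraries cover counting error only.

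**Figure D1:**
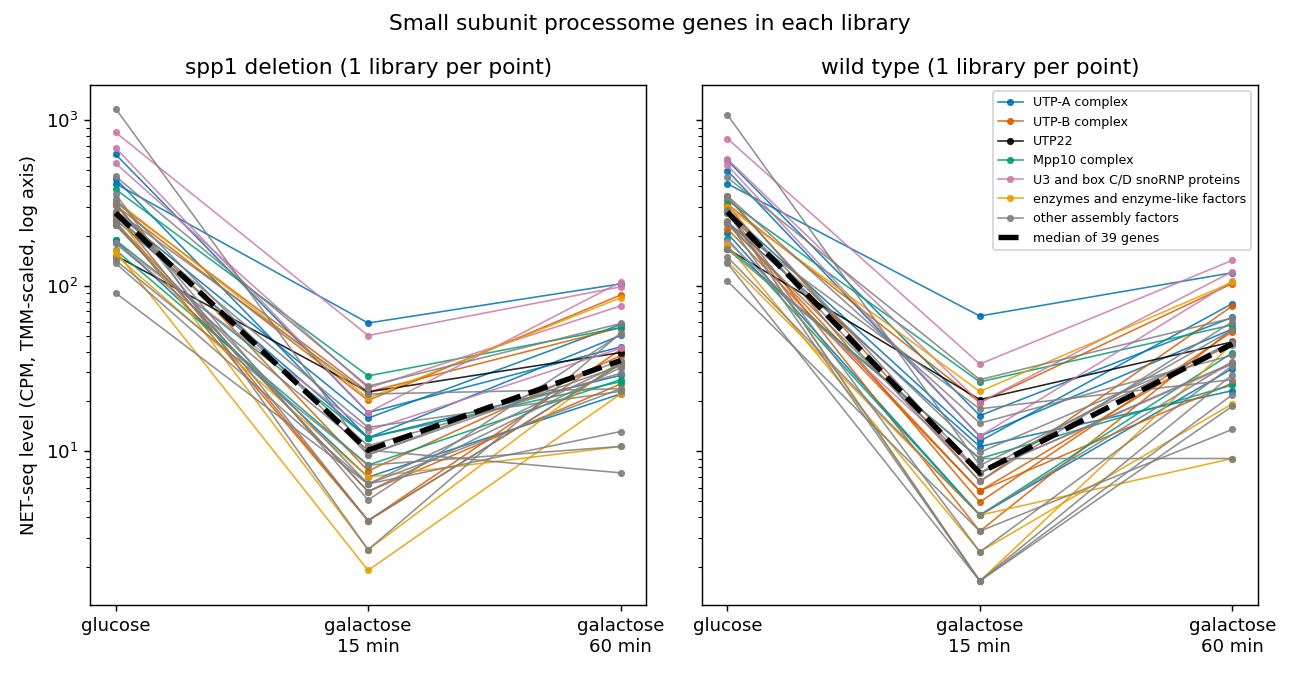
Level of each of the 39 genes in each library, in CPM (counts scaled to a common library total) on a log axis, for the spp1 deletion (left) and the wild type (right); each point is 1 library and colours give the role. The median gene had 275, 10.1 and 35.3 CPM in glucose and at 15 and 60 min in the deletion, and 279, 7.38 and 44.5 CPM in the wild type.

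Within glucose the genes differed in level. Per kb of gene length (the span in the reference annotation), the median was 146 CPM in the deletion and 142 CPM in the wild type, against 92.2 and 91.0 CPM over all genes tested. NSR1 (YGR159C, chromosome VII, 806412 to 807656), which encodes a nucleolin-like protein of rRNA processing, was the highest at 947 CPM per kb in the deletion and 869 in the wild type. Next came BUD21 (UTP16) at 710 and 701 and NOP1 at 693 and 544 CPM per kb. The lowest was UTP20, which encodes a very long scaffold protein, at 35.3 and 36.6 CPM per kb, with UTP22 next and then ECM16 at 42.7 and 46.1. Levels per kb in glucose ran nearly alike in both strains over the 39 genes (Spearman 0.990, a description over genes that share the same libraries). The fitted log2 change at 15 min, which is negative for a fall, gave a Spearman value of 0.034 with this level over the same genes.

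The first comparison asked what the transfer to galactose did to these genes by 15 min, over both strains. All 39 fell, against 38.1% of all genes tested (quasi-likelihood test of edgeR, adjusted p under 0.05 after Benjamini-Hochberg), and 0 rose, against 37.1%. The median fitted log2 change was -4.68, against -0.01 over all genes. The strains stand in for replicates in this fit, so the test finds a change that both strains share. Each change is relative to the rest of its library, so these counts cannot show whether transcription as a whole rose or fell. Taken singly, each strain had a 95% counting interval below 0 in all 39 genes, against 41% of all genes in the deletion and 39.5% in the wild type. Ranked by the fitted fall among the 5186 genes, the median member stood at place 117 and the shallowest, UTP9, at 417. Of the 200 deepest falls, 33 (16.5%) were processome genes, which is 84.6% of the 39. At 15 min 24 of the 39 genes held 20 counts or fewer in both strains, which limits how exactly the deepest falls are known.

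Of the UTP-A complex, which links pre-rRNA transcription to its processing, all 6 measured genes fell, with fitted log2 changes between -5.26 and -2.73. UTP10 (YJL109C, chromosome X, 212000 to 217309) was the deepest: the deletion held 1808, 19 and 61 counts and the wild type 1274, 15 and 85, here and below in the order glucose, 15 min, 60 min. Its fitted change was -5.26 ± 0.18 (edgeR adjusted p = 3.76e-12); values given after ± with fitted changes are the absolute log2 change over √F, used in place of a standard error. UTP9 (YHR196W, chromosome VIII, 491931 to 493658) was the shallowest of all 39, with 1691, 94 and 125 counts in the deletion and 1062, 80 and 186 in the wild type. Even so, both 15 min libraries lay far below both glucose libraries, at 14.4% of the glucose level in the deletion and 15.8% in the wild type (fitted -2.73 ± 0.14, edgeR adjusted p = 9.21e-11). Upstream of UTP9, 218 bp away on the same strand, lies NVJ1, which rose at 15 min (2.21, same edgeR test) to 607 counts in the deletion and 486 in the wild type; its part in the UTP9 count was not tested. UTP5, UTP8, UTP15 and NAN1 (UTP17) lay between, at -5.15, -5.09, -4.32 and -4.44.

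The UTP-B complex, a set of mostly WD-repeat proteins that holds the 5′ end of the pre-rRNA, fell further, with a median of -5.46 over its 6 genes against -4.76 for UTP-A; no test between the complexes was made. UTP13 (YLR222C, chromosome XII, 579318 to 581771) held 1122, 6 and 50 counts in the deletion and 723, 4 and 85 in the wild type. Its glucose level was 72.4-fold its 15 min level in the deletion (exact 95% counting interval 33.2 to 198) and 85.9-fold in the wild type (33.4 to 316). DIP2 (UTP12) fell least of this complex, with 1252, 32 and 107 counts in the deletion and 800, 24 and 160 in the wild type (fitted -3.94 ± 0.17, edgeR adjusted p = 1.39e-11). PWP2 was the gene of this complex in which the strains differed most at 15 min: it held 1303, 36 and 68 counts in the deletion and 893, 8 and 117 in the wild type. UTP18, UTP21 and UTP6 had fitted log2 changes of -5.63, -5.56 and -5.36.

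UTP22, which works in the UTP-C complex with Rrp7 and casein kinase subunits, fell little for this group. It held 621, 36 and 48 counts in the deletion and 429, 25 and 71 in the wild type, and its fitted change at 15 min was -2.86 ± 0.18 (edgeR adjusted p = 8.58e-10). Only UTP9 fell less among the 39. In the Mpp10 complex, which bridges the U3 RNA and the pre-rRNA, IMP3 fell most: 769, 19 and 32 counts in the deletion and 491, 5 and 61 in the wild type (fitted -4.46 ± 0.27). MPP10 fell least there, with 1562, 45 and 68 counts in the deletion and 843, 32 and 90 in the wild type (fitted -3.70 ± 0.16). IMP4 lay between at -4.28.

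The box C/D snoRNP proteins package the RNAs that guide 2′-O-methylation of rRNA, and U3 is of the same class. NOP1, the yeast fibrillarin and the methyltransferase itself (YDL014W, chromosome IV, 427364 to 428347), held 2781, 27 and 128 counts in the deletion and 1375, 15 and 165 in the wild type. Its fitted change at 15 min was -5.35 ± 0.20 (edgeR adjusted p = 4.23e-12), the deepest of the 4 genes. The paired core proteins NOP56 and NOP58 had fitted log2 changes of -4.26 and -4.67. NOP56 held 3452, 79 and 120 counts in the deletion and 1993, 41 and 221 in the wild type, and NOP58 held 2244, 38 and 92 counts in the deletion and 1501, 24 and 189 in the wild type. RRP9, a protein of the U3 particle alone, fell least of the 4 (fitted -4.10 ± 0.22), with 739, 21 and 51 counts in the deletion and 475, 9 and 52 in the wild type.

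Among the enzymes and enzyme-like factors were some of the deepest falls. RCL1 (YOL010W, chromosome XV, 307938 to 309041), an RNA-cyclase-like protein that binds the GTPase Bms1, held 1106, 4 and 43 counts in the deletion and 723, 2 and 69 in the wild type. With counts this low the fall is known only broadly: the glucose level was 107-fold the 15 min level in the deletion (exact 95% counting interval 41.7 to 394) and 172-fold in the wild type (47.4 to 1422). ECM16 (DHR1), the DEAH-box helicase that frees U3 from the pre-rRNA, held 662, 3 and 27 counts in the deletion and 450, 3 and 30 in the wild type. The DEAD-box helicase gene ROK1 held 627, 11 and 13 counts in the deletion and 359, 5 and 14 in the wild type. EMG1 (NEP1), a methyltransferase of the small-subunit rRNA, fell least in this class, with 1339, 33 and 103 counts in the deletion and 768, 28 and 163 in the wild type (fitted -3.84 ± 0.18, edgeR adjusted p = 2.71e-11).

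All 15 remaining assembly factors fell, by a fitted median of -4.72. NSR1 had the deepest fitted change of the 39 genes, -6.98 ± 0.25 (edgeR adjusted p = 3.76e-12), with RCL1 next to it at -6.97 ± 0.26 and the bars of the pair overlapping. NSR1 held 4807, 15 and 40 counts in the deletion and 2778, 10 and 71 in the wild type. RRP5, which has S1 RNA-binding repeats and serves both subunits, held 1471, 4 and 63 counts in the deletion and 879, 9 and 84 in the wild type. KRR1, a KH-domain protein, fell least in this class, with 1161, 35 and 29 counts in the deletion and 616, 22 and 42 in the wild type (fitted -3.70 ± 0.18). UTP25, ENP1, UTP23 and SOF1 had fitted changes of -6.51, -5.92, -5.90 and -5.70. NOC4, UTP7, NOP14, UTP20, UTP14, UTP11, ENP2 and BUD21 lay between -4.84 and -4.14.

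**Figure D2:**
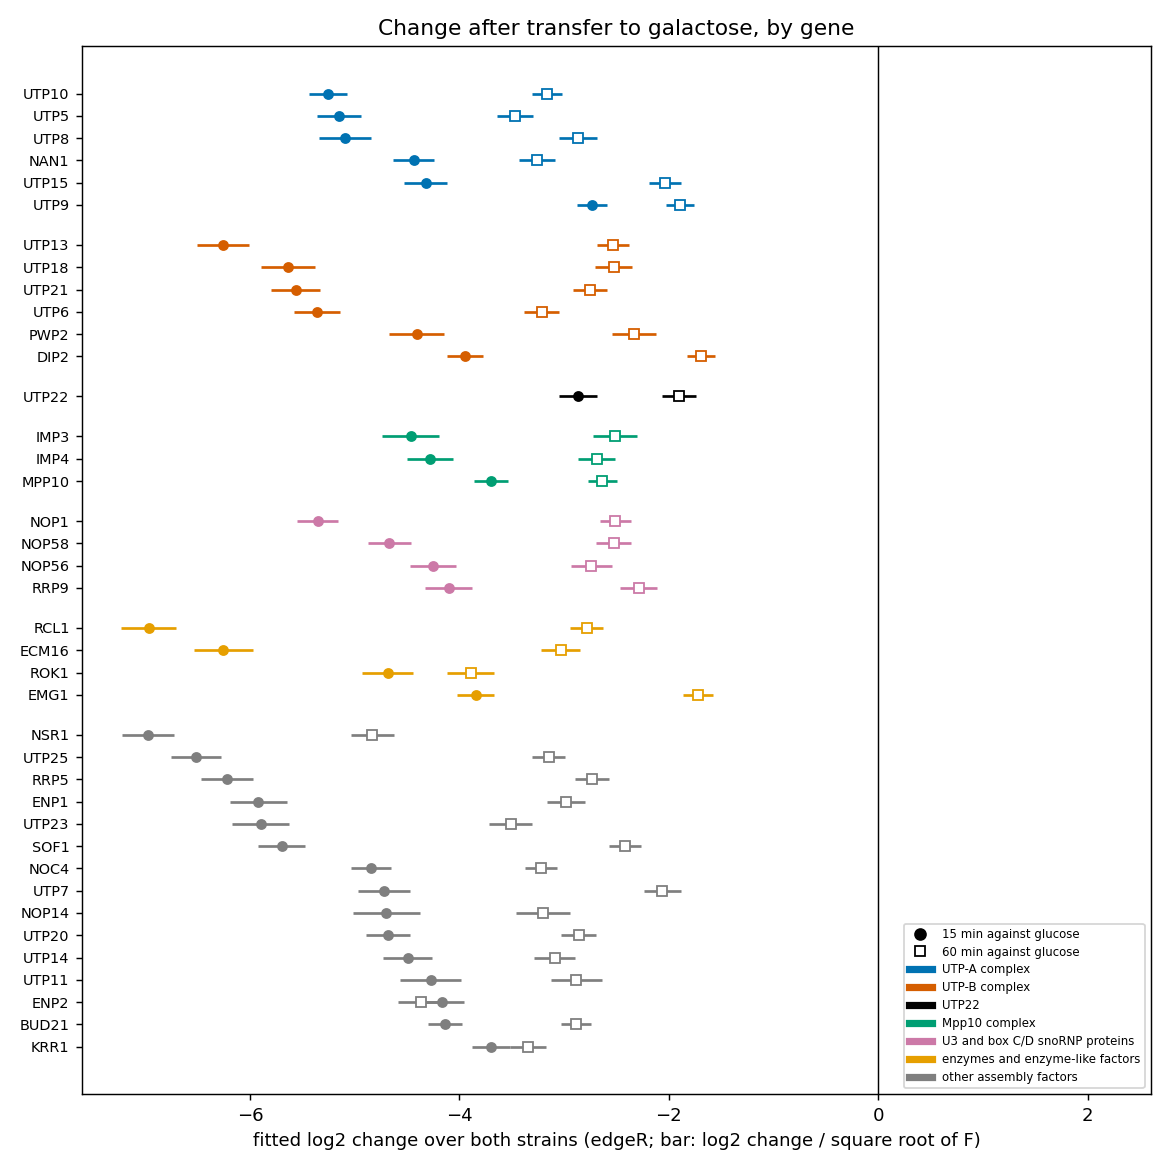
Fitted log2 change against glucose at 15 min (filled circles) and 60 min (open squares) for each of the 39 genes, over both strains, ordered within role; bars are the absolute log2 change over √F. All 15 min values lie between -6.98 and -2.73, and the 60 min values between -4.83 and -1.69; ENP2 is the gene whose 60 min value, -4.37, lies below its 15 min value, -4.16.

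The second comparison asked whether transcription came back between 15 and 60 min. In the same edgeR test, 36 of the 39 genes rose between 15 and 60 min, against 20.4% of all genes tested, and 0 fell, against 16.1%. The median fitted log2 change was 2.10, against 1.91e-03 over all genes. At 60 min all 39 were still lower than in glucose, against 33.9% of all genes, and 0 were higher, against 32.3%, with a median of -2.79. Taken singly, the counting interval of the rise lay above 0 in 33 genes of the deletion and 36 of the wild type, against 24% and 26.6% of all genes. The interval of 60 min against glucose lay below 0 in all 39 genes of each strain, against 38.1% and 36.8%. The median gene stood at 13.7% of its glucose level in the deletion and 15.8% in the wild type at 60 min, with ranges of 2.79 to 28.6% and 4.23 to 35.1%. None of the 39 reached 50% of its glucose level in either strain, whereas 84.8% of all genes tested were above 50% in at least 1 strain.

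The strongest rises were those of RCL1 (4.18 ± 0.38, edgeR adjusted p = 1.21e-06), UTP13 (3.72 ± 0.33) and RRP5 (3.49 ± 0.33), all from fewer than 10 counts per library at 15 min. In each of them both 60 min libraries lay above both 15 min libraries. At the other end, ENP2, KRR1 and ROK1 did not pass the test. ENP2, a WD-repeat protein that is known to work beside Bfr2, held 735, 16 and 9 counts in the deletion and 426, 11 and 14 in the wild type (fitted 60 min against 15 min -0.20 ± 0.39, edgeR adjusted p = 0.726). The corresponding values were 0.35 ± 0.26 (edgeR adjusted p = 0.307) for KRR1 and 0.79 ± 0.43 (edgeR adjusted p = 0.165) for ROK1. At 60 min ENP2 stood at 4.10% of its glucose level in the deletion and 5.43% in the wild type, and ROK1 at 6.94% and 6.45%. DESeq2 called 35 genes higher and limma 34: NOP14 was not called by either, nor PWP2 by limma.

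The genes that ended closest to their glucose level were not the ones with the largest rise. DIP2 reached 28.6% of its glucose level in the deletion and 33.1% in the wild type, EMG1 25.8% and 35.1%, UTP9 24.8% and 29.0%, and UTP22 25.9% and 27.4%. UTP9 and UTP22 had fallen least at 15 min and rose by only 0.83 ± 0.16 and 0.96 ± 0.23 afterwards. NSR1 was the furthest from its glucose level at 60 min, at 2.79% in the deletion and 4.23% in the wild type (fitted -4.83 ± 0.20, edgeR adjusted p = 3.69e-11), although it had risen by 2.14 ± 0.31 since 15 min. By role, the UTP-B genes had a median of 14.3% of the glucose level in the deletion and 20.2% in the wild type, the U3 and box C/D proteins 14.6% and 19.1%, the UTP-A genes 11.6% and 13.2%, and the 15 other assembly factors 10.6% and 12.7%.

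**Figure D3:**
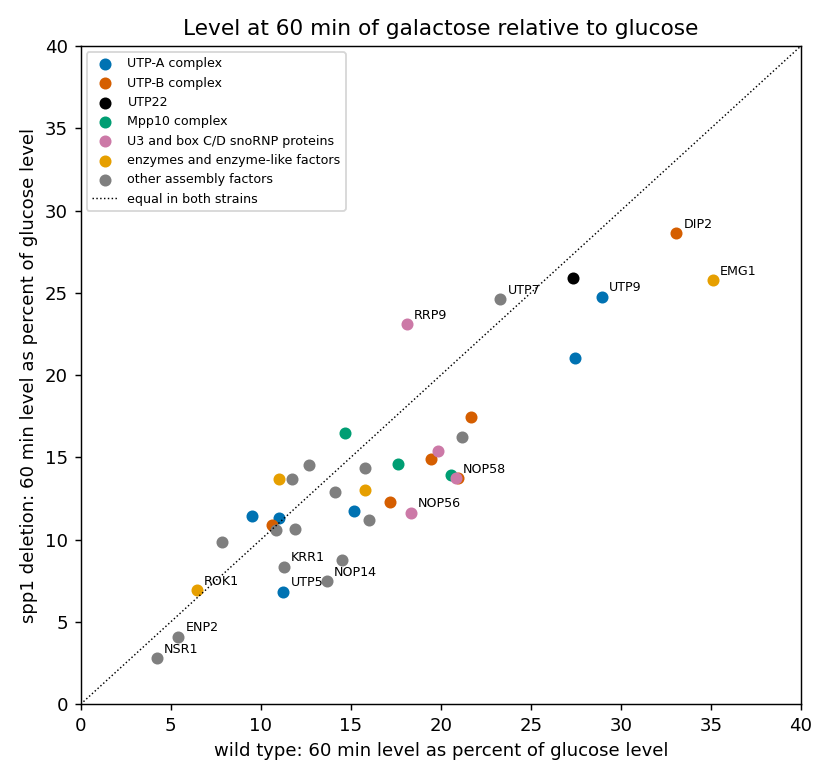
Level at 60 min of galactose as a percent of the glucose level, in the spp1 deletion (vertical axis) and the wild type (horizontal axis); each point is 1 gene, 1 library per strain and condition, coloured by role, and the dotted line marks equal values. No gene exceeds 35.1%, and NSR1 and ENP2 lie lowest in both strains.

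The third comparison asked whether loss of SPP1 changed these genes. In the test for a difference shared by the 3 conditions, 0 of the 39 genes passed in edgeR, DESeq2 or limma, and 0 had an unadjusted p under 0.05 in edgeR, against 6.04% higher and 7.52% lower of all genes. Over all genes tested edgeR called 1.1% higher and 0.733% lower in the deletion. Fitted log2 differences of the 39 genes lay between -0.23 and 0.23, with a median of -0.05. The lowest p-values were those of NOP1 (0.23 ± 0.14, edgeR adjusted p = 0.491), NOP58 (-0.23 ± 0.15, adjusted p = 0.540) and KRR1 (0.18 ± 0.14, adjusted p = 0.628). The conditions stand in for replicates in this fit, so it could miss a difference of 1 condition.

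Condition by condition there is 1 library per strain and no test. In glucose the median deletion minus wild type difference was -0.02 on the log2 scale, and the exact counting interval lay above 0 in 10 genes and below 0 in 3, against 17.6% and 15.7% of all genes. At 15 min the median was 0.19, and the interval lay above 0 in 4 genes (NOP14, PWP2, IMP3 and NOP56) and below 0 in 0, against 12.1% and 12% of all genes. With all libraries thinned to the smallest total that median was 0.03. At 60 min the median was -0.22, and the interval lay above 0 in 0 genes and below 0 in 3 (NOP58, UTP5 and NOP56), against 14.5% and 13.9% of all genes. Most single-gene counting intervals thus hold 0 at both galactose times, and the shares at those times lie near those of all genes or below them. At 15 min the median of the 39 genes was 16 counts in the deletion and 9 in the wild type, against 174 and 135 over all genes. At 60 min it was 43 and 69, against 135 and 175. Fewer counts give wider intervals, so these shares cannot show that the strains were alike. In glucose the share above 0 was higher than that of all genes, and the share below 0 was lower. By sign alone, however, 18 of the 39 genes (46.2%) were higher in the deletion in glucose, against 51.6% of all genes. The median of the 39 genes in glucose was 1122 counts in the deletion and 717 in the wild type. Over all genes it was 455 and 286, and more counts give narrower intervals.

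**Figure D4:**
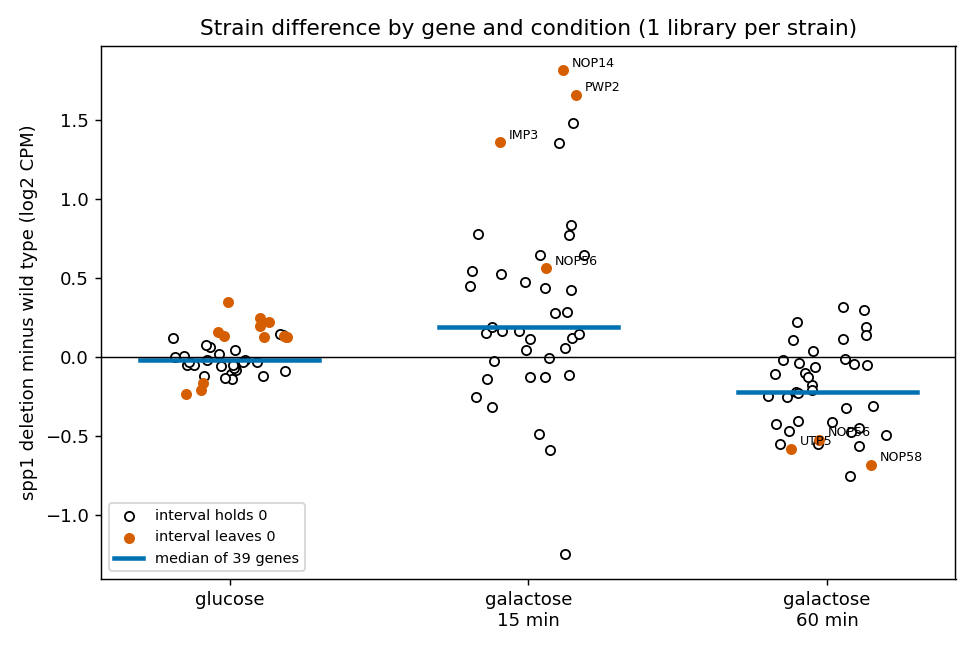
Deletion minus wild type difference in log2 CPM of each of the 39 genes in glucose and at 15 and 60 min of galactose, 1 library per strain; filled points have an exact 95% counting interval that leaves 0, and the blue line is the median (-0.02, 0.19 and -0.22). Points spread most at 15 min, where counts are lowest.

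The change from 15 to 60 min was smaller in the deletion than in the wild type in 31 of the 39 genes, or 79.5%, against 49.8% of all genes tested. Its median was 1.61 on the log2 scale in the deletion and 2.33 in the wild type (1.65 and 2.23 in thinned libraries). In the lists of other pathway genes described below, fewer genes leaned this way. The change was smaller in the deletion in 14 of 25 other early factors (56%) and in 8 of 12 later factors (66.7%). The exact counting interval of the strain difference lay below 0 in 6 of the 39 genes and above 0 in 0, against 9.74% and 10.7% of all genes. In 33 of the 39 genes it gave no call in either direction, as in 4128 of the 5186 genes tested. NOP14 differed most: it held 582, 13 and 13 counts in the deletion and 351, 2 and 29 in the wild type, a difference in change of -2.57 (interval -6.44 to -0.64). PWP2 followed at -2.08 (-3.62 to -0.99) and IMP3 at -1.92 (-4.02 to -0.48). In these 3 genes the 15 min count of the deletion was the higher and its 60 min level the lower of the strains. For the change from glucose to 15 min, the interval of the strain difference lay above 0 in these 3 genes and below 0 in 0 of the 39, against 9.58% and 10.5% of all genes. These 3 genes were picked as the lowest in the strain difference from 15 to 60 min. Both strain differences use the same 15 min counts, so they are not separate observations. For the change from 15 to 60 min, NOP56 (-1.09, interval -1.78 to -0.44) and NOP58 (-0.96, interval -1.87 to -0.11) rest on more counts. UTP14 stood at -1.39 (-2.96 to -0.08). At the other end RRP5 (1.19, interval -0.45 to 3.69), NOC4 (0.48, interval -0.71 to 1.79) and ECM16 (0.44, interval -2.45 to 3.59) had intervals that hold 0; NOC4 held 1359, 15 and 43 counts in the deletion and 898, 18 and 59 in the wild type. With no replicate of any condition, a difference between the strains in the course of recovery could not be tested. Over the 39 genes the changes in the deletion and in the wild type ran alike, with a Spearman value of 0.749 for 15 min against glucose and 0.680 for 60 against 15 min, as a description over genes of the same 6 libraries.

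Another pair of lists held other genes of the pathway, chosen from general knowledge with earlier results of these data known. Of 25 other factors of the processome or early 40S assembly, 24 fell at 15 min in the edgeR test, against 38.1% of all genes. In that test 0 rose, against 37.1%, and the median was -4.46. Between 15 and 60 min 20 rose, against 20.4% of all genes. The deepest were KRE33, the rRNA acetyltransferase gene (-5.92 ± 0.23), LCP5 (-5.91 ± 0.22) and BFR2 (-5.85 ± 0.27). KRE33 held 1213, 7 and 38 counts in the deletion and 694, 6 and 53 in the wild type. The exception was the helicase gene DHR2 (-0.33 ± 0.30, edgeR adjusted p = 0.331). It lies in a stretch of chromosome XI whose counts are uncertain. Among tested genes there, those on the W strand had a median level -1.27 log2 units from those on the C strand, against -0.02 elsewhere. The stretch was set apart after the data were seen, so this strand gap is not independent evidence. Its part in the DHR2 count was not tested. None of the 39 processome genes lies in that stretch, although UTP11 lies beside its edge, 297 bp from MTC2. Of those that fell, RRP7, UTP30, ESF1 and FCF1, named after their values were seen, fell little: RRP7, the partner of UTP22, at -0.89 on the log2 scale and FCF1, an endonuclease-like factor, at -1.75, with UTP30 (in the same stretch) and ESF1 between them. RRP7 held 1471, 312 and 241 counts in the deletion and 958, 240 and 397 in the wild type, so that a large part of its signal stayed at 15 min while that of UTP22 fell further.

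Of 12 factors that act later, on the pre-40S particle, 10 fell at 15 min in the edgeR test, 1 rose and 1 did not pass. Over all genes tested 38.1% fell and 37.1% rose. The median of the 12 was -4.33, and 9 of them rose between 15 and 60 min, against 20.4% of all genes. The deepest were RRP12, an export factor (-5.59 ± 0.25), PRP43, a DEAH-box helicase (-5.50 ± 0.28), and TSR2, an escort of a ribosomal protein (-5.36 ± 0.26). HRR25, a casein kinase 1 gene with roles well beyond ribosomes, rose (0.46 ± 0.14, edgeR adjusted p = 9.63e-03), with 1212, 587 and 407 counts in the deletion and 638, 458 and 402 in the wild type. SQS1, a cofactor of Prp43, held 236, 112 and 71 counts in the deletion and 119, 83 and 117 in the wild type (0.40 ± 0.19, edgeR adjusted p = 0.0611). In both lists 0 genes passed the edgeR test between the deletion and the wild type, and 0 had an unadjusted p under 0.05. Over all genes the adjusted test called 1.1% higher and 0.733% lower, so 0 calls in lists this short lie near that share. At an unadjusted p under 0.05 the shares over all genes were 6.04% higher and 7.52% lower.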

How the data were processed

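The table the authors deposited holds read counts per gene as whole numbers, which were used unchanged; per the submitters' processing notes Bowtie (version not stated) aligned the reads to sacCer3. How reads were counted (tool, strand, gene windows) is not given in the sources used here. Names, positions and lengths came from a reference table of the R64 assembly, in which 5116 of 5219 identifiers were found; 3 lines of the table were emptied for this work. Genes with a mean count of at least 10 over the 6 libraries were fitted by quasi-likelihood in edgeR 4.0.16, with TMM scaling (R 4.3.3), genotype and condition as additive terms, which leaves 2 residual degrees of freedom, with Benjamini-Hochberg adjustment over the 5186 genes tested. CPM of single libraries were scaled by TMM, log2 CPM used a prior count of 2, and exact 95% binomial intervals (Fisher's exact intervals for differences in change) were taken on counts. Library totals ran from 1162190 to 4167249 counts. The fit was tested on simulated data. Alternatives were other scalings, filters, prior counts and thresholds, thinned libraries, fits on fewer conditions, limma 3.58.1, DESeq2 1.42.0 and, added after seeing the data, a fit without part of chromosome XI. The genes and lists were chosen with earlier results of these data known. Counts per library are given for the deepest and shallowest fall of each role, the 3 highest and 3 lowest recoveries and strain differences in recovery, and the lowest genotype p-values; other pathway genes were named where they did not fall or were among the 3 deepest, and UTP5, UTP14, RRP7, UTP30, ESF1 and FCF1 were named after their values were seen. No promoter sequences were at hand, so the motif search that was planned was not run. Plots used Python 3.11.15 and matplotlib 3.10.9.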

Additional observations from a re-analysis of the deposited data

Results flagged for a closer look

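In UTP5 and NOP56 the strain difference had opposite signs in different conditions, and ENP2 was lower at 60 than at 15 min in the deletion alone; each value rests on 1 library, and the differences were not tested. ENP2 changed from 15 to 60 min by -0.41 on the log2 scale in the deletion, while in the wild type it had 9.02 CPM at both times. UTP5 was lower in the deletion than in the wild type at 60 min (log2 -0.58) and higher in glucose (0.12), with counting intervals that leave 0 in both. NOP56 was higher in the deletion in glucose (0.12) and at 15 min (0.56) and lower at 60 min (log2 -0.53), likewise with intervals that leave 0. Over all 39 genes the median deletion minus wild type difference was 0.19 at 15 min and -0.22 at 60 min. With all libraries thinned to the smallest total, these medians were 0.03 and -0.23. No group has enough samples to look for a sample that stands apart.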

How the results depend on the processing

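Counts of processome genes called were the same or close under every alternative run: 39 lower at 15 min, 34 to 36 higher from 15 to 60 min, 39 lower at 60 min than in glucose, and 0 for genotype. The lowest count of the second comparison, 34, came with limma, with a threshold of 0.01 and with a 2-fold change asked for as well; DESeq2 gave 35. Leaving out the libraries of each condition in turn gave between 0 and 0 genes for genotype. The medians of single strains moved by less than the typical counting interval of 1 gene, a loose yardstick for a median over 39 genes. At 15 min they lay between -4.48 and -3.97 in the deletion and between -5.11 and -4.41 in the wild type. From 15 to 60 min they lay between 1.36 and 1.77 in the deletion and between 1.94 and 2.48 in the wild type. With library totals as the only scaling the fitted median of all genes from 15 to 60 min was 0.15, and that of the 39 genes was 2.25. No paired analysis was possible because each group holds 1 library, so that replicate numbers pair nothing; the additive fit itself compares conditions within strains and strains within conditions. Low counts at 15 min limit the depth of the deepest falls: in the deletion 12 and in the wild type 21 of the 39 genes held 10 counts or fewer.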

Other observations

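Of the 39 genes, 25 have a gene on the same strand next upstream and 0 overlap another gene of the reference. The next upstream gene on either strand was tested for 33 of them; it fell at 15 min in 17 and rose in 9 (edgeR, Benjamini-Hochberg adjusted), against 38.1% and 37.1% of all genes tested, and no test of this difference was made. RTS3, 972 bp upstream of NSR1 on the same strand, rose at 15 min (fitted log2 change 2.58 ± 0.14, edgeR adjusted p = 8.96e-11), with 255, 613 and 305 counts in the deletion and 108, 291 and 225 in the wild type, while NSR1 had the deepest fall. YEH1, a sterol esterase gene 267 bp upstream of SOF1 on the same strand, held 1816, 74 and 185 counts in the deletion and 487, 8 and 176 in the wild type, whereas SOF1 held 8 counts in both strains at 15 min. Among the other pathway genes, the nucleolar factor NOP6 held 730, 50 and 61 counts in the deletion and 424, 21 and 53 in the wild type, and PRP43 held 998, 13 and 30 counts in the deletion and 622, 2 and 44 in the wild type; neither passed the edgeR test between strains (adjusted p = 0.371 and 0.937). These genes were chosen after their values were seen.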
